A study of Mus musculus with 4 samples.

Results

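The genes described here mark nerve fibres and Schwann cells or carry neurotrophin signals: Bdnf, Ngfr, Ntrk2, S100b, Sox10, Uchl1 and Tubb3. They were chosen by name, and every probe set annotated to exactly 1 of these symbols was taken, which gave 20 probe sets of 34945 with a single symbol and 7 genes of 18193. Expression was measured on 4 Affymetrix 3′ arrays of mouse endometriotic lesions, which are growths of endometrium at sites other than the womb. The tissue came from animals kept on a high-fat diet (2 arrays) or on a casein diet (2 arrays), and the labels name the casein diet as the control. The arrays are called casein replicates 1 and 2 and high-fat replicates 1 and 2. The series title speaks of an immunocompetent mouse model. The strain, age, duration of feeding and number of animals or lesions behind an array could not be read from the labels. Whether the 2 arrays of a diet come from different animals is therefore not known. Gastric and skeletal muscle markers, given below, differed widely between arrays of the same diet. All values are linear probe set intensities as deposited, and differences are log2 of the high-fat diet minus the casein diet.

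Neurotrophins are secreted ligands that keep neurons alive and direct the growth of their axons. Bdnf encodes the ligand of the tyrosine kinase receptor encoded by Ntrk2, and Ngfr encodes the low-affinity receptor that binds all neurotrophins. Sox10 encodes the transcription factor that specifies Schwann cells, and S100b a calcium-binding protein by which these glia are stained. Uchl1 encodes a ubiquitin hydrolase and Tubb3 a beta-tubulin, both used to stain axons in tissue sections. Nerve fibres have been studied in endometriotic lesions because of pain.

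Of genes known from the uterine lining, picked after the data were seen, the hormone receptor genes Esr1 and Pgr and the patterning gene Hoxa10 lay at the 99.1st, 98.3rd and 96.5th percentile of mean intensity, where the median gene on the array lay at the 64.8th. Foxa2, a gene of the endometrial glands, lay at the 56.4th. Krt8 and Krt18, which many epithelia make, were highest on casein replicate 1. The arrays also differed in tissues other than endometrium. Summed intensity of 12 gastric mucosa markers was 72482 and 10535 on casein replicates 1 and 2, against 487 and 508 under high-fat feeding. Summed intensity of 15 skeletal muscle markers was 32528 in high-fat replicate 1 and between 2066 and 3123 in the other arrays. After Benjamini-Hochberg adjustment limma called 0 of the 12797 genes tested (0%), 636 genes (4.97%) had an unadjusted p under 0.05, and both arrays of one diet lay beyond both of the other for 36% of the tested genes. With bulk tissue, fewer cells of a type and less RNA per cell cannot be told apart.

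The genes differed widely in where they lay on the intensity scale of the array. Ngfr and Ntrk2 were bright, with their brightest probe sets at the 84.7th and 83.5th percentile of mean intensity. Sox10 lay in the middle of the array at the 50th percentile. Uchl1, S100b, Bdnf and Tubb3 lay near the dim end, at the 33.7th, 32.1st, 28.3rd and 26.7th percentile. Of the 20 probe sets, 14 were below the 40th percentile (intensity 33.9), the level required for testing, and 7 were below the 25th. Ngfr, Ntrk2 and Sox10 therefore entered the fit over genes above the filter, and the other 4 were read from the fit over all probe sets, which has no filter. Probe sets differ in how well they bind, so this order is not one of transcript abundance. No detection calls were used, so a dim value shows neither expression nor its absence.

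**Figure D1:**
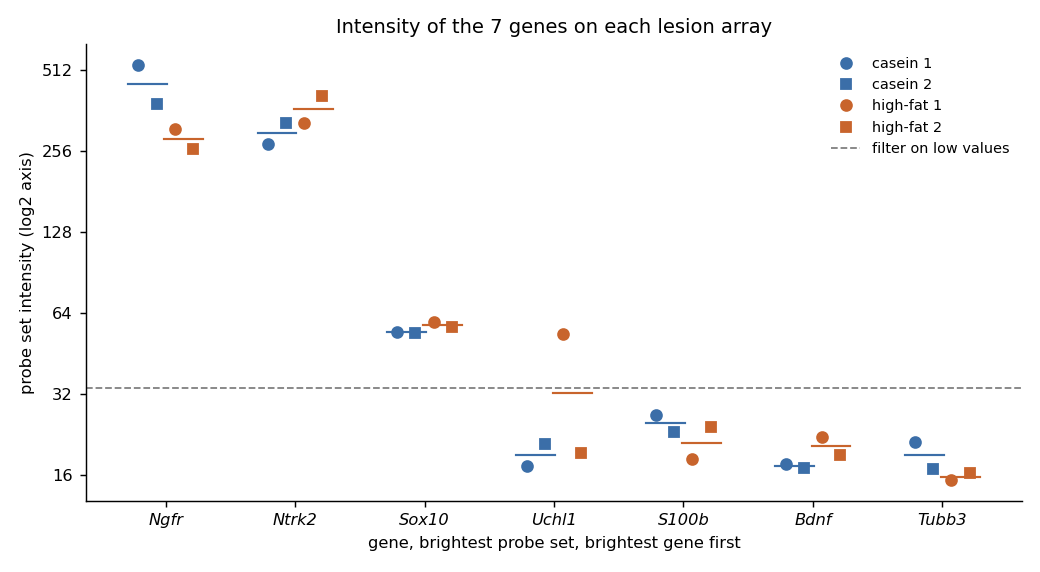
Intensity of the brightest probe set of each gene (log2 axis) on casein replicates 1 and 2 (blue circle and square) and high-fat replicates 1 and 2 (orange circle and square), with a bar at each diet's mean of log2 values and a dashed line at the filter intensity of 33.9. Ngfr and Ntrk2 lie far above the line, Sox10 just above it, and Uchl1 crosses it on high-fat replicate 1 alone, at 53.5.

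Ngfr, the shared neurotrophin receptor, had the largest difference among the 3 tested genes, toward lower values on the high-fat diet. On probe set 1454903_at its intensities were 535 and 384 under casein and 308 and 260 under high-fat feeding. Casein diet replicate 1 was the highest array, and the 2 diets did not overlap. The difference was -0.68 (SE 0.21, 95% interval -1.29 to -0.07), a 1.60-fold lower level, and it did not pass limma's test (unadjusted p = 0.0363, adjusted p = 0.863). Its middle probe set, just under the filter at the 39.5th percentile, read 44.0 and 31.8 under casein and 29.0 and 29.4 under high-fat feeding. That is again a separation of the diets, with a difference of -0.36 (SE 0.19). The dimmest probe set, at the 12.9th percentile, overlapped between diets (difference -0.19, SE 0.26). All 3 probe sets of Ngfr thus pointed the same way, although they share their target and are not replicates.

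The size of the Ngfr difference depended on which casein array was kept. It was -0.44 without casein replicate 1 and -0.92 without casein replicate 2, and -0.80 and -0.56 without high-fat replicates 1 and 2. Casein diet replicate 1 was also the array with the highest gastric markers, and the part of that tissue in the Ngfr values was not tested. The 3 tested genes whose values over the 4 arrays were most like those of Ngfr were Hsph1, a heat shock protein gene, Samsn1, an adaptor gene of immune cells, and Srebf2, which encodes a regulator of cholesterol synthesis. Their root mean square differences from Ngfr, after centring each gene on its mean, were 0.029, 0.035 and 0.042 log2. Hsph1 had intensities of 1651 and 1212 under casein and 923 and 787 under high-fat feeding, the same order of arrays as Ngfr. Likeness over 4 arrays is a description only.

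Ntrk2, the receptor for the Bdnf protein, was bright on all arrays and overlapped between diets. Its brightest probe set, 1420838_at, read 273 and 326 under casein and 325 and 411 under high-fat feeding. High-fat diet replicate 1 lay just under casein replicate 2. The difference was 0.29 (SE 0.18, 95% interval -0.21 to 0.80, unadjusted p = 0.177, adjusted p = 0.863 by limma). It was 0.12 without high-fat replicate 2, 0.17 without casein replicate 1, 0.42 without casein replicate 2 and 0.46 without high-fat replicate 1.

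Ntrk2 gives rise to a full-length receptor and to shorter forms without the kinase, and it had 8 probe sets, which disagreed in direction. The second brightest, at the 76.8th percentile, kept the order of arrays of the brightest, with 155 and 234 under casein and 224 and 277 under high-fat feeding (difference 0.39, SE 0.25). The third, at the 41.6th percentile, separated the diets the other way, with 37.3 and 42.0 under casein and 35.2 and 35.0 under high-fat feeding (difference -0.17, SE 0.11). The other 5 lay between the 1.61st and the 32.8th percentile, 3 with a difference above 0 and 2 below. Which receptor form each probe set reads is not given in the sources used here. The mean over all 8 probe sets gave a difference of 0.08.

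Bdnf, the ligand, stayed near the dim end on every array. Its brighter probe set, 1422169_a_at, read 17.7 and 17.1 under casein and 22.2 and 19.0 under high-fat feeding. Both high-fat arrays were above both casein arrays, within a narrow range of low values. The difference was 0.24 (SE 0.12) in the fit over all probe sets, where it did not pass (unadjusted p = 0.113, adjusted p = 0.851 by limma). It ranged from 0.13 without high-fat replicate 1 to 0.35 without high-fat replicate 2. The other probe set, at the 19.7th percentile, overlapped, with 10.5 and 13.3 under casein and 12.7 and 12.3 under high-fat feeding.

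Sox10, the Schwann cell transcription factor, was nearly level across the 4 arrays. Its brightest probe set, 1451689_a_at, read 54.5 and 54.2 under casein and 59.4 and 56.7 under high-fat feeding. The diets did not overlap, but the difference was only 0.09 (SE 0.09, 95% interval -0.17 to 0.35, unadjusted p = 0.367, adjusted p = 0.869 by limma). The second probe set, at the 46.0th percentile, read 47.6 and 42.7 under casein and 51.0 and 43.7 under high-fat feeding and overlapped. The third, under the filter, had a difference of -0.05 (SE 0.11). Sox10 is also made by melanocytes. The defining melanocyte genes Dct and Tyr read between 14.8 and 17.2 and between 7.42 and 9.26, Mlana read 26.5 on high-fat replicate 1 and at most 12.0 elsewhere, and Pmel read between 31.9 and 37.2. Of 10 melanocyte markers, Sox10 itself among them, 6 were too dim to test. The summed intensity of the 10 was 889 and 1006 under casein and 1250 and 1156 under high-fat feeding. Most of it came from Mitf and Kit, which other cells also make.

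S100b, the second Schwann cell gene, was dim and overlapped between diets in its brighter probe set. That probe set, 1419383_at, read 26.9 and 23.2 under casein and 18.4 and 24.1 under high-fat feeding. High-fat diet replicate 1 alone was low. The difference was -0.25 (SE 0.18, unadjusted p = 0.242, adjusted p = 0.854 by limma over all probe sets), and -0.05 without high-fat replicate 1 against -0.44 without high-fat replicate 2. The dimmer probe set, at the 13.5th percentile, read 11.5 and 8.41 under casein and 7.83 and 8.33 under high-fat feeding. S100b is also made by fat cells. The adipokine gene Adipoq read 107 and 91.4 under casein and 33.1 and 348 under high-fat feeding, with its lowest value on the array with the least S100b. Fabp4, the adipocyte marker with the smallest p, had another order, with 490 and 697 under casein and 1292 and 2026 under high-fat feeding (difference 1.47, SE 0.31, adjusted p = 0.863 by limma). The summed intensity of 12 adipocyte markers, S100b itself among them, was 3633 and 6514 under casein and 5428 and 7187 under high-fat feeding. Most of it came from Lpl and Fabp4, and the part of fat cells in the S100b values was not tested.

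Uchl1, an axon gene, was high on 1 array only. Its only probe set, 1448260_at, read 17.3 and 20.9 under casein and 53.5 and 19.4 under high-fat feeding. High-fat diet replicate 2 lay between the casein arrays, so the diets overlapped. The difference of 0.76 (SE 0.53, unadjusted p = 0.218, adjusted p = 0.851 by limma over all probe sets) was 0.03 without high-fat replicate 1 and 1.49 without high-fat replicate 2. High-fat diet replicate 1 was also the array on which 14 of 15 skeletal muscle markers were highest. Ttn, which encodes the giant sarcomere protein titin, read 4053 there and between 16.7 and 43.6 elsewhere. Their part in the Uchl1 value was not tested.

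The genes whose values were most like those of Uchl1 were Tmem38a, an ion channel gene of the muscle sarcoplasmic reticulum, Clec4e, a pattern receptor gene of macrophages, and Pkia, which encodes a protein kinase A inhibitor. Their root mean square differences were 0.076, 0.11 and 0.14 log2. Tmem38a read 33.4 and 40.9 under casein and 114 and 42.3 under high-fat feeding, and Clec4e read 338 and 391 against 1172 and 433. Each thus stood out on high-fat replicate 1. The other axon gene did not share this order. Tubb3, on its only probe set 1415978_at, read 21.3 and 16.9 under casein and 15.4 and 16.3 under high-fat feeding, with its lowest value on high-fat replicate 1. Its diets did not overlap, and its difference was -0.26 (SE 0.15, unadjusted p = 0.155, adjusted p = 0.851 by limma over all probe sets), or -0.09 without casein replicate 1 and -0.43 without casein replicate 2.

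**Figure D2:**
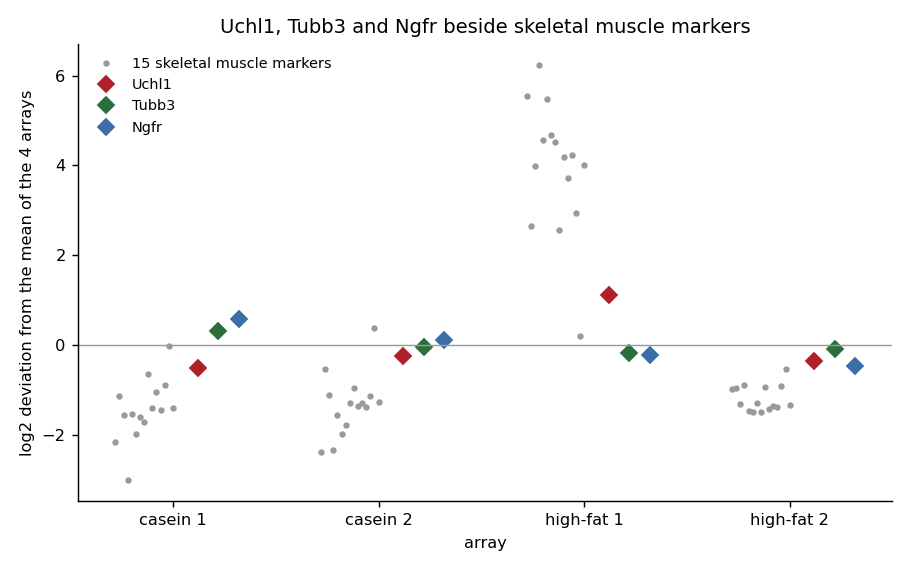
Log2 deviation from each gene's mean of the 4 arrays (vertical axis) on each array (horizontal axis), for 15 skeletal muscle markers (grey points, 1 a gene) and for Uchl1, Tubb3 and Ngfr (red, green and blue diamonds). Uchl1 and 14 of the 15 muscle markers are highest on high-fat replicate 1, while Ngfr and Tubb3 are highest on casein replicate 1.

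Across the 20 probe sets, 10 had a difference above 0 and 10 below. Both high-fat arrays were above both casein arrays for 4 probe sets and below them for 6, beside 17.4% and 18.2% of all 34945 probe sets with 1 symbol, and 10 of 20 were separated either way beside 35.7%. Since several probe sets read 1 gene, these counts are not independent. No probe set of these genes differed by 1 log2 or more, which 2.15% of all probe sets did. Of the 3 tested genes, Sox10 had both high-fat arrays above, which held for 16.6% of tested genes, and Ngfr had both below, which held for 19.3%. None of the 3 passed limma's adjusted test, and none differed by 1 log2 or more (3.17% of tested genes). Only Ngfr had an unadjusted p under 0.05 (4.97% of tested genes).

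**Figure D3:**
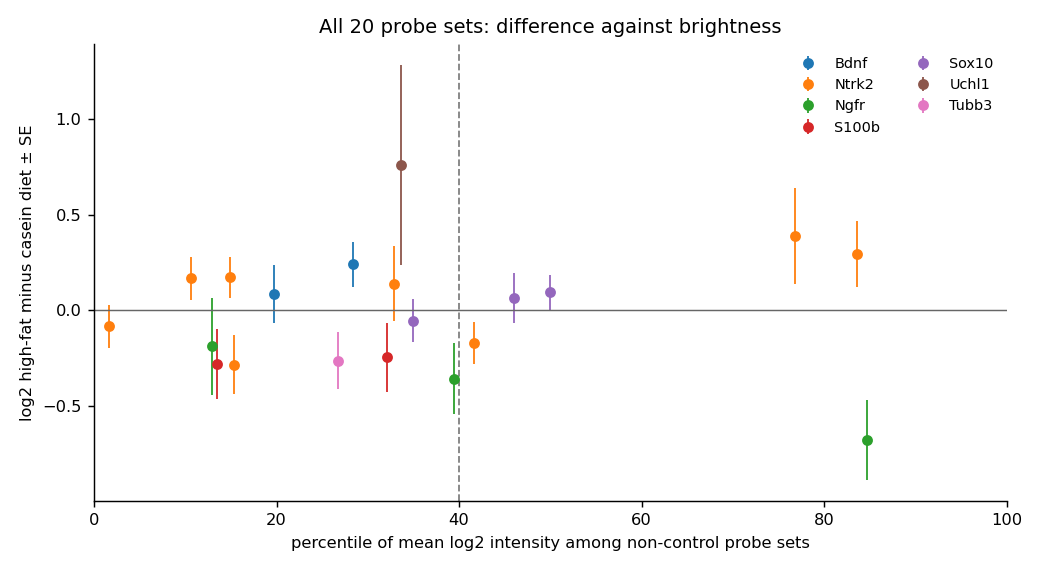
Log2 difference, high-fat minus casein diet, with its standard error from limma over all probe sets (vertical axis), against the percentile of mean intensity among non-control probe sets (horizontal axis), for all 20 probe sets coloured by gene. The dashed line is the 40th percentile filter, with 14 probe sets to its left, and the brightest probe set of Ngfr has the lowest difference at -0.68.

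A wider list held ligands, receptors and adaptors of the neurotrophin and GDNF (glial cell line-derived neurotrophic factor) families. It also held Lif, Lifr, Cntf and Cntfr, cytokine and receptor genes that belong to neither family. Of its 26 genes, 21 were on the array with a single symbol, and 17 were tested. None passed limma's adjusted test in either direction. At an unadjusted p under 0.05 there were 3, beside 4.97% of all tested genes. Of the 3, Lifr had higher values under high-fat feeding and Ngfr and Ntrk3 lower ones. Differences were above 0 for 4 genes and below 0 for 13, with a median of -0.09, beside 6220 of 12797 above 0 and a median of -0.01 over all tested genes. The median lay between -0.07 and -0.11 when any array was left out. Lif reached the filter through the casein arrays alone, and over all 21 genes on the array 7 differences were above 0 and 14 below, with a median of -0.07.

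Among the ligands, Nrtn, which encodes neurturin, had the largest difference. It read 254 and 150 under casein and 123 and 111 under high-fat feeding (difference -0.74, SE 0.29). Casein diet replicate 1 was the highest array, and the diets did not overlap. Gdnf read 73.3 and 67.8 under casein and 89.3 and 46.4 under high-fat feeding, and the 2 high-fat arrays enclosed the others (difference -0.13, SE 0.36). Artn, the artemin gene, differed by 0.30 (SE 0.31). Ntf5, the gene of a second ligand of the Ntrk2 receptor, was dim like Bdnf, at the 30.5th percentile, and had the same order of diets, with 19.8 and 19.7 under casein and 23.2 and 21.8 under high-fat feeding. Pspn, the persephin gene, was dim as well and overlapped. Lif, the gene of leukaemia inhibitory factor, read 50.7 and 35.9 under casein and 31.9 and 30.6 under high-fat feeding (difference -0.45, SE 0.20).

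Among the receptors, Lifr, which encodes the receptor for that factor and is of neither family, had the smallest p of the list. It read 410 and 409 under casein and 778 and 628 under high-fat feeding, a difference of 0.77 (SE 0.14, 95% interval 0.37 to 1.18, unadjusted p = 0.00656, adjusted p = 0.856 by limma). The 2 casein arrays were almost equal and both high-fat arrays lay above them. Ntrk3, the receptor gene for neurotrophin-3, went the other way, with 56.5 and 73.8 under casein and 46.9 and 45.3 under high-fat feeding (difference -0.49, SE 0.17, unadjusted p = 0.0456, adjusted p = 0.863 by limma). Ntrk2 and Ntrk3, of the same receptor family, thus had differences of opposite sign, and the difference between them was not tested.

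The 3 co-receptor genes of the GDNF family that were tested had differences below 0. Gfra1 read 101 and 49.7 under casein and 40.1 and 46.8 under high-fat feeding (difference -0.71, SE 0.39), its level resting on casein replicate 1. Gfra2 read 103 and 126 under casein and 83.4 and 91.5 under high-fat feeding (difference -0.38, SE 0.15). Gfra3 was flat, between 77.6 and 81.4 on all arrays, and Gfra4 was too dim to test. Ret, the signalling receptor of this family, overlapped, with 79.3 and 46.3 under casein and 33.4 and 61.3 under high-fat feeding. The remaining genes, Sort1, Cntfr, Nradd, Kidins220 and Sh2b1, differed by between -0.09 and 0.12. Kidins220, the gene of a scaffold protein of neurotrophin receptors, read 816 and 921 under casein and 905 and 974 under high-fat feeding.

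**Figure D4:**
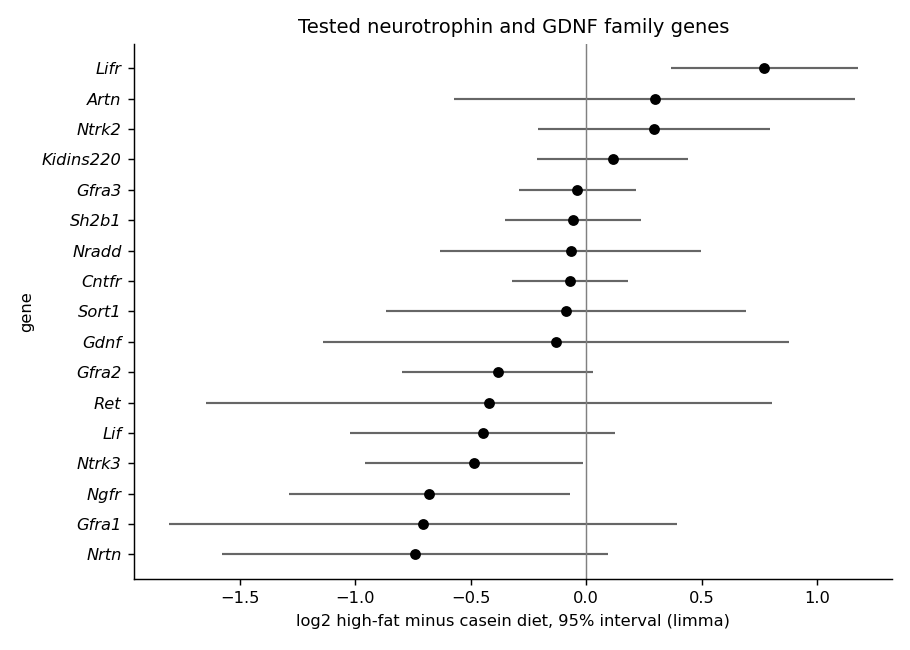
Log2 difference, high-fat minus casein diet (horizontal axis), with limma's 95% interval (lines), 2 arrays a diet. The vertical axis holds the 17 tested genes of the neurotrophin and GDNF list, of which Lif, Lifr and Cntfr belong to neither family. Lifr lies highest at 0.77 and Nrtn lowest at -0.74, and the intervals of Lifr, Ngfr and Ntrk3 do not reach 0, before any adjustment over genes.

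Schwann cell and peripheral glia markers, 26 of 30 on the array and 18 tested, had 4 differences above 0 and 14 below, with a median of -0.36. Over all tested genes 6220 of 12797 were above 0, with a median of -0.01. Gjb1 and Nrg1 reached the filter through the casein arrays alone, so their lower values under high-fat feeding were set by it. Over all 26 genes on the array, 7 differences were above 0 and 19 below, with a median of -0.22. None of the tested genes passed limma's adjusted test, and 2 had an unadjusted p under 0.05, beside 4.97% of all tested genes. Both, Ngfr and Egr2, were lower on the high-fat diet. Egr2, the transcription factor gene of myelination that is also made by immune cells, read 199 and 248 under casein and 160 and 131 under high-fat feeding (difference -0.62, SE 0.18, unadjusted p = 0.0282, adjusted p = 0.863 by limma). The median moved to -0.14 without casein replicate 1, and it was between -0.30 and -0.45 without each of the others. In casein replicate 1 Mal, which acts in apical transport of epithelial cells as well as in myelin, read 2060, against 449, 140 and 404 in casein replicate 2 and high-fat replicates 1 and 2. Gjb1, a gap junction gene of both Schwann cells and epithelia, read 223 there and at most 44.3 elsewhere. That array had the highest gastric markers, and the part of epithelium in the list's median was not tested.

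Among genes of myelin, Mbp, the myelin basic protein gene, read 436 and 320 under casein and 271 and 306 under high-fat feeding (difference -0.37, SE 0.20), with casein replicate 1 the highest. Pmp22, a myelin gene also made by fibroblasts, read 588 and 757 against 678 and 725 and overlapped (difference 0.07, SE 0.16). Cnp, a gene of myelinating glia with wide expression, read 1475 and 1295 against 1017 and 1172 (difference -0.34, SE 0.13), and L1cam, an adhesion gene of axons and Schwann cells, differed by -0.48 (SE 0.23). Cdh19, a cadherin gene of Schwann cell precursors, was at the 9.83rd percentile, and Gfap and Foxd3 at the 29.3rd and 36.6th.

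Neuron and axon markers were mostly dim. Of 38 on the array, 24 were below the filter, among them the neurofilament genes Nefl and Nefm, at the 9.81st and 8.62nd percentile, and Snap25, a gene of synaptic release, at the 13.9th. Th, the gene of the rate-limiting enzyme of noradrenaline synthesis in sympathetic fibres, read between 9.72 and 12.8 on all arrays. Prph, the peripherin gene of peripheral neurons, read between 28.9 and 35.9, and Stmn2, a growth cone gene, between 34.1 and 43.0. Of all 38, 15 had both high-fat arrays below both casein arrays and 5 had them above, beside 18.7% and 17% of all 18193 genes. Of the 14 tested, 6 had a difference above 0 and 8 below, with a median of -0.05. Over all tested genes 6220 of 12797 were above 0, with a median of -0.01. Chga, Chgb and Vip reached the filter through the casein arrays alone and Mapt through the high-fat arrays alone, and over all 38 genes 13 differences were above 0 and 25 below, with a median of -0.08. None passed limma's adjusted test, and 3 had an unadjusted p under 0.05, beside 4.97% of all tested genes. Under high-fat feeding 2 of the 3 had higher values and 1 had lower ones.

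The gene lower among these was Vip, which encodes a relaxing neuropeptide of autonomic and gut neurons. It read 48.9 and 145 under casein and 19.6 and 19.5 under high-fat feeding (adjusted p = 0.863 by limma). Casein diet replicate 2 was the highest array. Both high-fat arrays were under the filter intensity, so Vip was tested only because of its casein values, which fixed the direction of its difference. Casein replicates 1 and 2 and high-fat replicates 1 and 2 were the highest array for 11, 13, 8 and 6 of the 38 neuron markers. For the 26 glia markers the counts were 12, 4, 5 and 5. Over all 18193 genes on the array the counts were 5722, 3782, 4392 and 4297. Casein diet replicate 2 was thus most often the highest array for neuron markers, and casein replicate 1 for glia markers and all genes. A few dim genes were highest on casein replicate 2 like Vip. They were picked for this after their values were seen, although Snap25 was also among the fixed defining markers. Tac1, the substance P gene, read 24.9 and 53.4 under casein and 9.37 and 11.6 under high-fat feeding, and Scg2, a secretory granule gene, 19.96 and 41.8 against 10.01 and 12.1. Snap25 read 8.69 and 17.4 against 5.82 and 7.78, and Fabp7, a glial fatty acid-binding protein gene, read 21.5 and 53.1 against 19.2 and 22.4. Casein diet replicate 2 was also the highest array for 12 of 13 smooth muscle markers, with summed intensities of 34530 and 39745 under casein and 24838 and 21801 under high-fat feeding. The part of smooth muscle in these nerve genes was not tested. Uchl1 and Tubb3 were not highest on that array.

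Chgb and Chga, granule genes of neurons and of endocrine cells, were instead high on casein replicate 1. Chgb read 196 and 36.7 under casein and 19.1 and 18.8 under high-fat feeding, and Chga 106 and 34.6 against 29.2 and 30.7. Gast, the gastrin gene of stomach endocrine cells, was also highest there, with 273 and 34.5 against 17.8 and 21.4. All 3 reached the filter through the casein arrays alone, so the direction of their differences was set by it. Of 16 endocrine markers on the array, dim ones included, 12 were highest on casein replicate 1, beside 5722 of all 18193 genes. A difference below 0 was found for 15, with a median of -0.45 beside -0.00088 over all genes. Uchl1, which is 1 of the 16, was the only one above 0. None of the 5 tested had an unadjusted p under 0.05, and none passed limma's adjusted test.

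Map2 and Nos1 were the neuron genes with higher values. Map2, a microtubule gene of dendrites that other cells also make, read 76.5 and 179 under casein and 277 and 367 under high-fat feeding. That is a difference of 1.45 (SE 0.48, unadjusted p = 0.0410, adjusted p = 0.863 by limma), and casein replicate 1 was far below the rest. Nos1, the neuronal nitric oxide synthase gene, read 46.1 and 46.7 against 57.1 and 55.6 (difference 0.28, SE 0.09). Npy, the gene of a peptide of sympathetic neurons, overlapped, with 44.7 and 166 under casein and 220 and 141 under high-fat feeding.

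**Figure D5:**
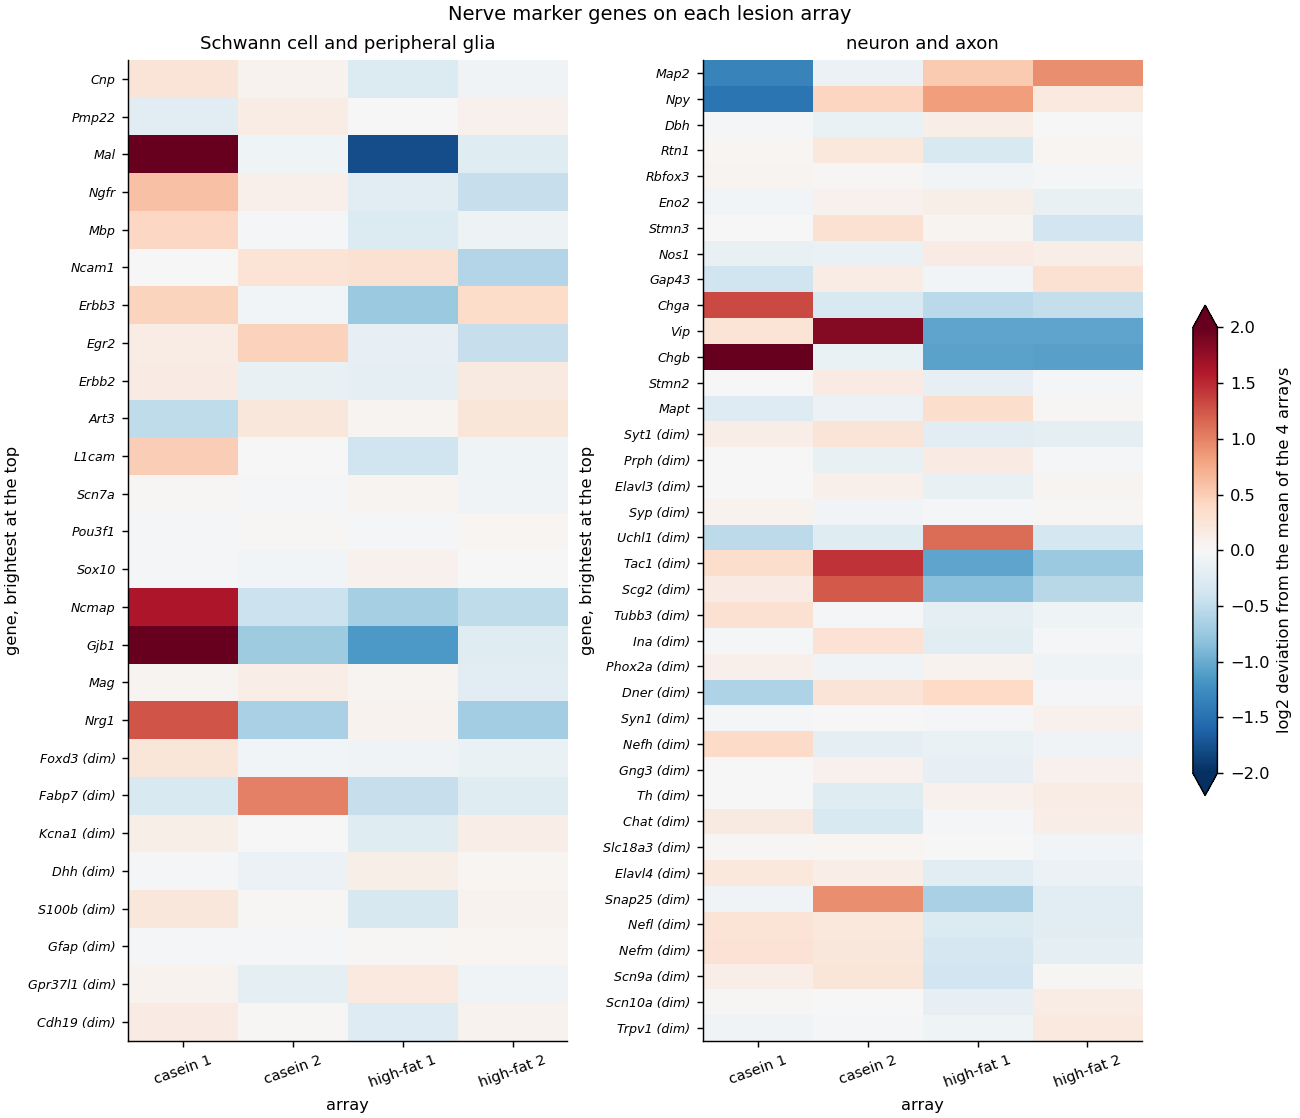
Log2 deviation of each Schwann cell or glia marker (left, 26 genes) and neuron or axon marker (right, 38 genes) from its mean of the 4 arrays, red above and blue below and saturated beyond 2 log2, with genes under the filter marked as dim and the brightest genes at the top. Most rows are pale, casein replicate 1 stands out for Mal, Gjb1 and Chgb, and casein replicate 2 for Vip, Tac1 and Scg2.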

How the data were processed

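Per the labels' protocols, 0.1 µg of total RNA was made into biotin-labelled aRNA for the arrays. The authors deposited a linear intensity for each probe set, between 3.30 and 21720, already made alike between arrays. The submitters' processing notes name GCOS and RMA, with versions and order not given in the sources used here. Log2 was taken with no pseudocount. Of the probe sets, 64 controls, 932 with several symbols and 9160 with none were left out.

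For each gene the probe set with the highest mean log2 value was kept, and genes at or above the 40th percentile of non-control probe sets were tested with limma 3.58.1 (R 4.3.3), two-sided, with Benjamini-Hochberg adjustment over 12797 genes (3.80 total degrees of freedom). Members under the filter were read from the fit over all 34945 probe sets. With 2 arrays against 2 an exact permutation test cannot go below p = 0.333. The test was checked on simulated data.

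The members and lists were chosen with earlier results of these data known. Named by rule were the members, all genes of the neurotrophin and GDNF list, and up to 4 genes of each list with the smallest p. The rules also named fixed defining markers and the 3 genes most like each member spanning at least 1 log2. Other genes, among them Mal, Gjb1, Cdh19, Gfap, Foxd3, Npy and Nrp1, were named outside these rules with the data seen. Of the other lists, ovary markers (8 of 13 on the array above 0, median 0.04), mesothelium markers (9 of 10 below 0, median -1.32) and adipocyte markers (8 of 12 above 0, median 0.09) had no gene past the adjusted threshold, and 0 of 7, 4 of 7 and 1 of 8 tested genes with an unadjusted p under 0.05. The same counts were 0 and 6 of 9 for gastric, 0 and 0 of 13 for skeletal muscle, 0 and 10 of 13 for smooth muscle and 0 and 1 of 4 for melanocyte markers. Of all tested genes 4.97% had an unadjusted p under 0.05. Through the casein arrays alone 4 gastric, 2 mesothelium and 1 smooth muscle marker reached the filter. Through the high-fat arrays alone 6 skeletal muscle markers did. The direction of the differences of these markers was set by the filter. Alternatives covered the replicate block, normalisation, filters, probe set choice, a pseudocount of 16, the variance prior and each array left out. Figures were drawn with matplotlib 3.10.9.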

Additional observations from a re-analysis of the deposited data

How the results depend on the processing

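No member passed limma's adjusted test as reported or under any of 13 alternatives (0 in each), with 3 members tested as reported, 2 under the 60th percentile filter and under the mean of probe sets, and all 7 only with no filter or with all probe sets. The sign of each member's difference was the same with quantile normalisation, median centring, the mean of probe sets and a pseudocount of 16. With each array left out it was also the same for Ntrk2, S100b and Uchl1. For the other 4, whose diets do not overlap, leaving out an array could not turn it, and the remaining alternatives leave the differences as they are. The count of all genes passing limma's adjusted test was 0 with all arrays and ranged from 0 to 17 when 1 array was left out, with 17 without casein replicate 2, where the lone casein array is assumed to vary like the high-fat pair. With the replicate number as a block, 0 genes passed and 576 had an unadjusted p under 0.05, against 636 without it. Same-numbered arrays did not deviate together over all genes (correlation -0.02), but 1 such value cannot exclude that they were handled as pairs. With the block the SE was smaller for Ngfr (0.13 against 0.21) and Ntrk2 (0.11 against 0.18). For Sox10 it was larger (0.11 against 0.09). The mean over all probe sets left 2 of the 7 genes above the filter, and Ngfr then differed by -0.41 with no unadjusted p under 0.05 among them. Without casein replicate 1, high-fat replicate 1 or high-fat replicate 2, 0 of the 3 tested genes had an unadjusted p under 0.05. The leave-one-out medians of 3 lists were chosen after seeing the data, and that of neuron markers ranged from -0.08 to -0.02. Signal near the low end of the array limits what can be read from Bdnf, S100b, Uchl1 and Tubb3.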

Other observations

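Axon guidance genes, which steer growing nerve fibres and also act in vessels, were mostly above the filter, with 23 of 25 tested. Of these 15 had a difference above 0 and 8 below (median 0.06), beside 6220 of 12797 above 0 and a median of -0.01 over all tested genes. None passed limma's adjusted test, and 4 had an unadjusted p under 0.05, beside 4.97% of all tested genes. Both Slit receptor genes tested had higher values on the high-fat diet. The Slit ligand genes tested went both ways, Slit2 with a difference of -0.33 (SE 0.14) and Slit3 with 0.30 (SE 0.17). Robo1 read 179 and 291 under casein and 473 and 468 under high-fat feeding, a difference of 1.04 (SE 0.27, unadjusted p = 0.0197, adjusted p = 0.863 by limma). Robo2 read 36.4 and 42.7 under casein and 70.9 and 65.1 under high-fat feeding (difference 0.79, SE 0.13). Their diets did not overlap, as was the case for 36% of all tested genes.

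Sema3a, the gene of a secreted semaphorin that repels sympathetic and sensory axons, had lower values, with 234 and 206 under casein and 139 and 147 under high-fat feeding (difference -0.62, SE 0.11, unadjusted p = 0.00629, adjusted p = 0.856 by limma). Efna5, an ephrin ligand gene, read 339 and 285 under casein and 249 and 224 under high-fat feeding (difference -0.39, SE 0.14). Nrp1, the co-receptor gene for semaphorin-3A, was bright and overlapped, between 1584 and 1852 on all arrays.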
